A study of Mus musculus with 24 samples.

Results

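Nsg2, Gas7, BE692007 and Ifit1bl1 are 4 genes that were higher in PLZF- than in PLZF+ γδ T cells, and they make up 4 of the 7926 genes in the deposited expression table. They were picked by name for that difference, so the comparison of PLZF+ with PLZF- cells chose them and is described here without a test. In each of the 4 tissues all 4 genes had a lower mean in PLZF+ than in PLZF- cells, as the label says. A mean that was lower in PLZF+ cells in all 4 tissues was found in 7.47% of 5006 genes. These passed a filter on low values and had recovered reads.

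The γδ T cells came from untreated male PLZF-GFP mice on the C57Bl/6 background, aged 16 to 22 weeks, and were sorted by flow cytometry. The organs were adipose tissue of the epididymal depot, lung, spleen and the lymph nodes of the inguinal region. All animals carried the PLZF-GFP reporter, in the PLZF+ and in the PLZF- sorts. Each tissue gave a PLZF+ group and a PLZF- group of 3 Smart-seq2 libraries, 24 in all. The series text speaks of 2 replicates per subset, each pooled from 10 mice, so p-values measure the spread between these libraries, which may be technical in part.

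PLZF, encoded by Zbtb16, is a zinc finger transcription factor of innate-like lymphocytes, and directs an effector programme in natural killer T cells and some γδ T cells. Nsg2 encodes a small membrane protein of endosomes and vesicles, best studied in neurons. Gas7 encodes an F-BAR protein that binds membranes and actin and is known from neurons and macrophages. Ifit1bl1 belongs to the Ifit family, which interferons induce and whose members bind foreign RNA. BE692007 is a transcript annotated without a protein, with no role assigned here.

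The 4 genes lie at 4 places on 2 chromosomes of the mouse build GRCm38. Nsg2 covers chromosome 11 from base 32000463 to 32059202 and Gas7 covers the same chromosome from 67455437 to 67688990, both on the plus strand. BE692007 covers chromosome 19 from 11470166 to 11484578 and Ifit1bl1 the same chromosome from 34592891 to 34601956, both on the minus strand. BE692007 lies within the Ms4a gene cluster and shares 1088 exon bases, 20.8% of its own, with Ms4a6c on the opposite strand. Smart-seq2 libraries keep no strand, so reads from that stretch cannot be assigned to either gene, and Ms4a6c was not analysed here. Of the 50-base windows of BE692007 transcripts, 19.4% also occur in another gene, against 6.45% for Ifit1bl1 (6.36% in its neighbour Ifit1bl2), 0.185% for Gas7 and 0% for Nsg2. Values of BE692007, and to a smaller extent of Ifit1bl1, are therefore uncertain as to the gene they came from.

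Promoters of 3 of the 4 genes were matched in RefSeq (GRCm38.p6), as windows of 300 bases that run from 250 before to 50 after a start site. Those of Nsg2 and Ifit1bl1 are printed because each holds the interferon-stimulated response element, searched on both strands as GAAA, NN and GAAA in a row, in capitals. The capitals in Nsg2 also mark CAGGTG, an E-box. The motifs were chosen with the members known.
Nsg2, chr11:32000169-32000468, plus strand: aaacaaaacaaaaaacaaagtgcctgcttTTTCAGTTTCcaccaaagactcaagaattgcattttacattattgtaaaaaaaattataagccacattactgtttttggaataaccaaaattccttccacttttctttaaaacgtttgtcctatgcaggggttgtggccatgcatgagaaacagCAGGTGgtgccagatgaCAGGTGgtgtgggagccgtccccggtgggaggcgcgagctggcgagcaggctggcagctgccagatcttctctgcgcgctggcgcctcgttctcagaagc
Ifit1bl1, chr19:34601919-34602218, minus strand: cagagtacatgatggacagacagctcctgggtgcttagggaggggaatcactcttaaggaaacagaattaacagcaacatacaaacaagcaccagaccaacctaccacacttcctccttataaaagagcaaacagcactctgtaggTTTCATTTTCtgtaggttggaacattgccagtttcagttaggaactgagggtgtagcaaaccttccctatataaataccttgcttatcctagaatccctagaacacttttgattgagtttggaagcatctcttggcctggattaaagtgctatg
The response element lay 221 bases before the start in Nsg2 and 104 bases before it in Ifit1bl1, and the E-box stood at 67 and 50 bases before the start in Nsg2. A second annotated start of Ifit1bl1 had the element 23 bases before it, and a second start of Nsg2 had neither motif. The BE692007 window held neither motif. Across 32851 promoters of the same length, 3.44% held the response element and 20.2% the E-box. The third motif searched, CTTTGA, bound by TCF and LEF factors, was in 16.0% of promoters and in none of the windows of the 3 genes. These matches are letters in a window and say nothing of whether a factor bound.

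Library totals over the genes of the table ran from 56920 to 837955 reads. Lung libraries 2 and 3 were the shallowest, with relative depths of 0.312 and 0.329 (PLZF+) and 0.170 and 0.177 (PLZF-). In the PLZF- libraries among these, 3 reads correspond to 17.7 and 17.0 normalized reads, which are reads divided by the library's relative depth. All 6 genes of the T cell receptor complex in the table (Cd3e, Cd3d, Cd3g, Cd247, Tcrg-C2 and Tcrg-C4) were read. Their summed share of reads was 0.309% to 1.98% in PLZF+ libraries and 0.0694% to 1.57% in PLZF- libraries, and was highest in spleen and lymph node. Markers of other cells were present too: stromal and adipocyte genes took 0.237% to 2.66% of PLZF+ adipose libraries and 0.0494% to 3.67% of PLZF- adipose libraries, but at most 0.0373% of any spleen or lymph node library. Myeloid genes took 4.33% to 7.02% of PLZF+ lung libraries and 3.02% to 7.94% of PLZF- lung libraries, more than in any other tissue. Zbtb16 was not analysed here.

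Nsg2 was read least in adipose tissue, with 7.88, 1.49 and 0 normalized reads in PLZF+ adipose libraries, against 17.8, 2.25 and 7.87 in PLZF- adipose libraries. In lung it had 18.6, 0 and 0 in PLZF+ cells, against 52.7, 35.3 and 45.2 in PLZF- cells. The adipose groups overlapped, while every PLZF- lung library lay above every PLZF+ lung library. In spleen the PLZF+ libraries had 34.6, 27.8 and 52.4 normalized reads of Nsg2, against 193, 121 and 192 in the PLZF- libraries. In lymph node they had 13.8, 4.70 and 8.71, against 67.1, 100 and 123 in PLZF- cells. The subsets were apart in both lymphoid organs. Such an order of all 3 PLZF- above all 3 PLZF+ libraries was found in 3.26% of genes in adipose tissue, 2.06% in lung, 10.8% in spleen and 5.97% in lymph node.

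Averaged over the tissues, the log2 difference of Nsg2, PLZF+ minus PLZF-, was -2.67 ± 0.43 on the scale of the deposited values (SE). By tissue it was -1.39 in adipose tissue, -3.68 in lung, -2.15 in spleen and -3.45 in lymph node, each with an SE of 0.86. The 2 counts of 0 reads in PLZF+ lung came from the shallow libraries 2 and 3, where 3 reads would equal 9.60 and 9.12 normalized reads. From bulk libraries, fewer Nsg2-expressing cells and less Nsg2 RNA per cell cannot be told apart, and the same holds for every gene named below. In the order of the 8 group means, PLZF- spleen (169 ± 41.4, SD, n = 3) stood first, followed by PLZF- lymph node (96.6 ± 28.0), PLZF- lung (44.4 ± 8.73) and PLZF+ spleen (38.3 ± 12.7). PLZF- lung and PLZF+ spleen differed by less than the sum of their SDs, and the other neighbours among these 4 by more. The last 4 groups, PLZF- adipose tissue among them, had means of 3.12 to 9.32 and no neighbours apart beyond their SDs.

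Gas7 ran the other way across tissues, with its highest values in adipose tissue. PLZF+ adipose libraries had 130, 52.2 and 124 normalized reads, against 266, 152 and 325 in PLZF- adipose libraries. PLZF+ lung libraries had 49.9, 44.8 and 73.0, against 185, 47.1 and 102 in PLZF- lung libraries. The adipose groups did not overlap, and the lung groups did, through PLZF- library 2. In spleen the values were 12, 16.8 and 20.3 in PLZF+ cells, against 47.8, 80.1 and 27.6 in PLZF- cells. In lymph node they were 18.4, 3.91 and 0.622 in PLZF+ cells, against 175, 27.1 and 46.6 in PLZF- cells. Both lymphoid organs had the subsets apart, but library 1 stood far above the others in each lymph node group. The log2 difference, PLZF+ minus PLZF-, was -1.31 in adipose tissue, -0.83 in lung, -1.54 in spleen and -3.85 in lymph node (SE 0.81 each), and -1.88 ± 0.41 over the tissues. The order of the group means began with PLZF- adipose tissue (248 ± 88.0, SD, n = 3), PLZF- lung (111 ± 69.7) and PLZF+ adipose tissue (102 ± 43.2) and ended with PLZF+ spleen (16.4 ± 4.17) and PLZF+ lymph node (7.63 ± 9.43). Of its neighbours only PLZF- spleen (51.9 ± 26.5) and PLZF+ spleen were apart by more than the sum of their SDs.

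Over the 24 libraries Gas7 rose with markers of other cells, but not within every group. Myeloid genes, 11 of 13 listed ones in the table, took 0.303% of PLZF+ lymph node library 1, against 0.0162% and 0.0225% of libraries 2 and 3. They took 2.07% of PLZF- lymph node library 1, against 0.0162% and 0.00748% of libraries 2 and 3. In each lymph node group the library with most myeloid reads also had most Gas7, and most B cell reads (0.709% in PLZF+ and 0.730% in PLZF- library 1). In PLZF+ adipose tissue and PLZF- spleen the most myeloid reads and most Gas7 also fell in one library, but not in PLZF- adipose tissue or PLZF+ spleen. In lung, library 2 had the most myeloid reads of its group (7.02% in PLZF+ and 7.94% in PLZF- cells) and the least Gas7 (44.8 and 47.1 normalized reads). Across the 24 libraries the correlation of Gas7 with the share of a marker list was 0.59 for myeloid genes, 0.55 for stromal and adipocyte genes, 0.51 for B cell genes, 0.46 for endothelial genes, -0.46 for αβ T cell genes and -0.69 for the T cell receptor complex. For the other 3 genes the correlation with myeloid genes was -0.31 to -0.13, with endothelial genes -0.70 to -0.53 and with αβ T cell genes 0.57 to 0.66. These are descriptions over libraries that share tissue, depth and composition, and the part of other cells in the values was not tested.

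BE692007 was the gene of the 4 whose subsets were apart in every tissue, in the contrast that chose it. Over all genes all 3 PLZF- libraries lay above all 3 PLZF+ libraries in 3.26% in adipose tissue and 2.06% in lung. In spleen it was 10.8% and in lymph node 5.97%, and the share in all 4 tissues together was not counted. PLZF+ adipose libraries had 7.88, 2.99 and 5.05 normalized reads, against 9.86, 11.3 and 9.18 in PLZF- adipose libraries. PLZF+ lung libraries had 29.8, 32.0 and 27.4, against 96.8, 35.3 and 79.1 in PLZF- lung libraries. In lung, PLZF- library 2 was close to the PLZF+ values. In spleen the PLZF+ libraries had 61.5, 30.7 and 69.6, against 70.5, 112 and 115 in PLZF- libraries. In lymph node the PLZF+ libraries had 12.2, 6.26 and 6.22, against 116, 157 and 461 in PLZF- libraries. The PLZF- mean was 29.7 times the PLZF+ mean in lymph node, and 1.84 to 2.37 times in the other 3 tissues. Without PLZF- lymph node library 3 the lymph node ratio was 16.6. On the deposited log2 scale, PLZF+ minus PLZF- came to -0.85 in adipose tissue, -1.13 in lung, -0.92 in spleen and -4.64 in lymph node (SE 0.49 each), and -1.89 ± 0.25 over the tissues. PLZF- lymph node stood first among the group means (245 ± 189, SD, n = 3), its libraries just above those of PLZF- spleen (99.0 ± 24.7) with a difference of means below the sum of the SDs, and PLZF+ lymph node (8.24 ± 3.46) stood next to last. Only PLZF+ spleen (53.9 ± 20.5) and PLZF+ lung (29.7 ± 2.32), and PLZF+ lung and PLZF- adipose tissue (10.1 ± 1.06), were neighbours apart by more than the sum of their SDs.

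Like Nsg2, Ifit1bl1 had 0 reads in 3 PLZF+ libraries. PLZF+ adipose libraries had 10.5, 0 and 0 normalized reads, against 7.51, 12.4 and 2.62 in PLZF- adipose libraries. PLZF+ lung libraries had 6.06, 16.0 and 0, against 30.4, 11.8 and 22.6 in PLZF- lung libraries. In both tissues the subsets overlapped. In spleen the PLZF+ libraries had 47.4, 33.0 and 42.5, against 49.1, 87.9 and 67.8 in PLZF- libraries, and in lymph node 9.69, 3.91 and 13.7, against 39.7, 41.9 and 125. The lymphoid subsets were apart, in spleen by a small gap. The log2 difference, PLZF+ minus PLZF-, was -1.66 in adipose tissue, -2.03 in lung, -0.71 in spleen and -2.82 in lymph node (SE 0.89 each), and -1.80 ± 0.44 over the tissues. PLZF- lymph node (68.8 ± 48.6, SD, n = 3) and PLZF- spleen (68.2 ± 19.4) had almost the same mean. PLZF- spleen, PLZF+ spleen (41.0 ± 7.31) and PLZF- lung (21.6 ± 9.35) followed each other at gaps beyond the sum of their SDs, and the last 4 groups, at 3.50 to 9.10, did not.

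Beside these differences between the subsets, 4 of 6 genes of the T cell receptor complex were higher in PLZF+ cells over the tissues (median 0.97), 1 of 5 αβ T cell genes was lower, and none of 10 B cell, 11 myeloid, 7 endothelial and 9 stromal genes passed in limma. Over all genes tested 0.799% passed as higher in PLZF+ cells and 0.659% as lower. The part of these cell types in the members' values was not tested.

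**Figure D1:**
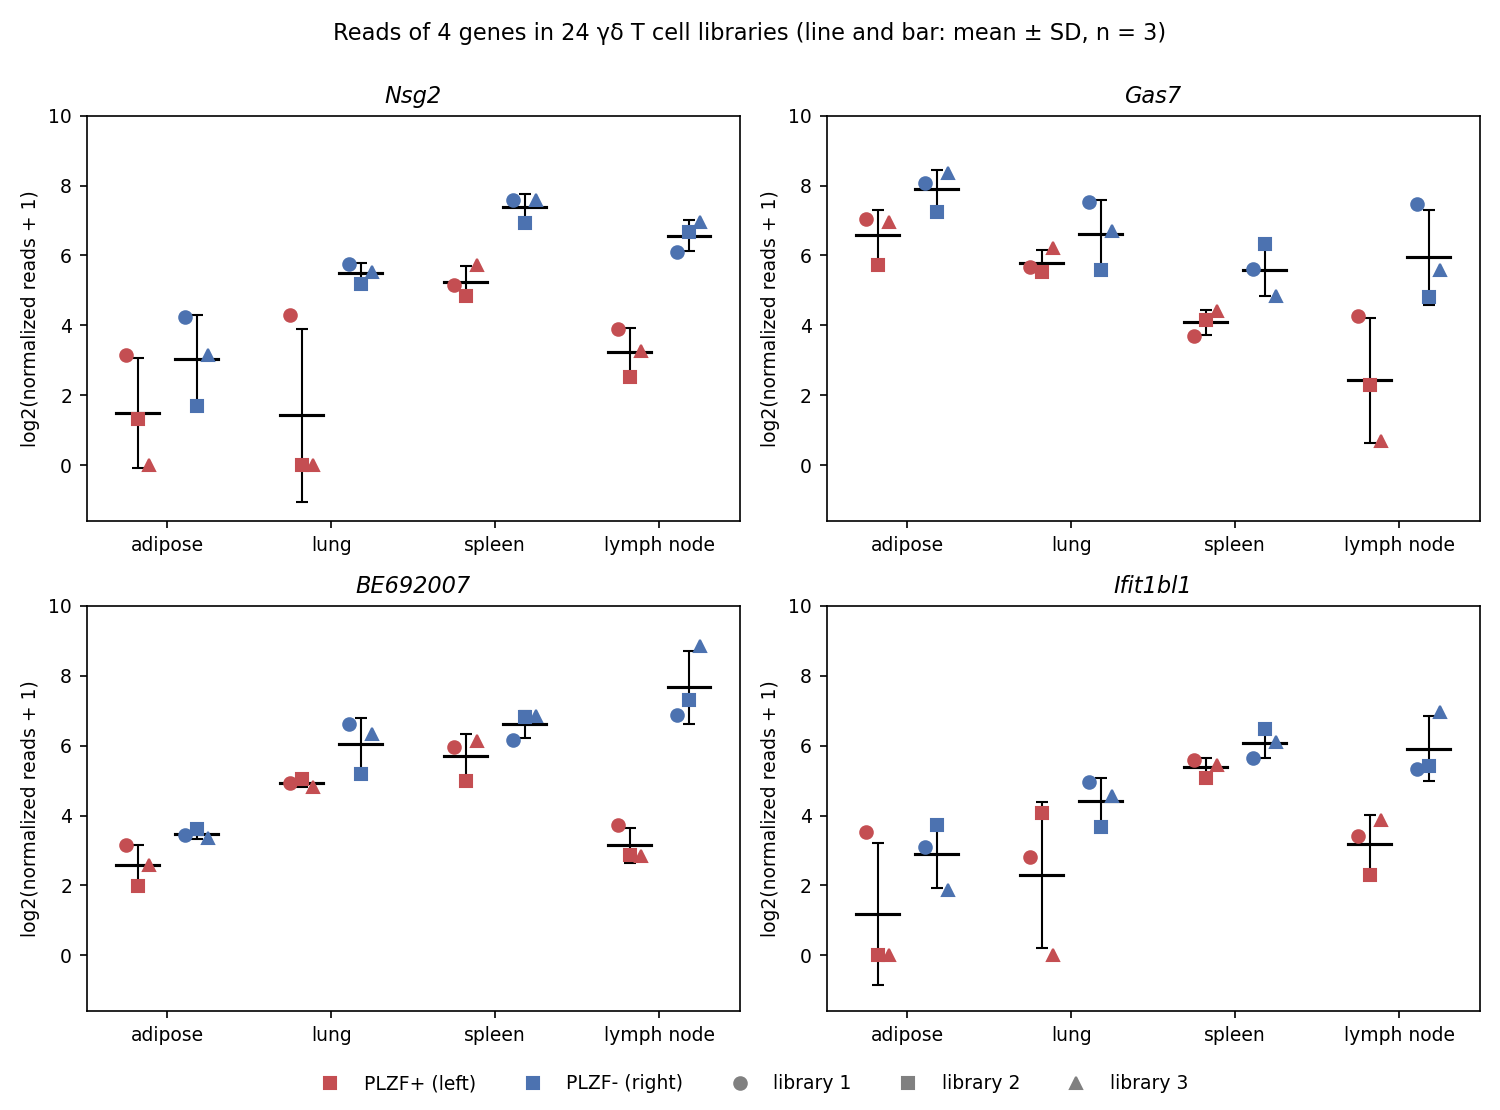
Normalized reads on a log2(value + 1) axis in each of the 24 libraries, PLZF+ (red) left of PLZF- (blue) in each tissue, with the mean and SD of these log2 values over 3 libraries. Points at 0 are libraries with no read, Gas7 is highest in adipose tissue, and the other 3 genes are lowest there in PLZF- cells.

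**Figure D2:**
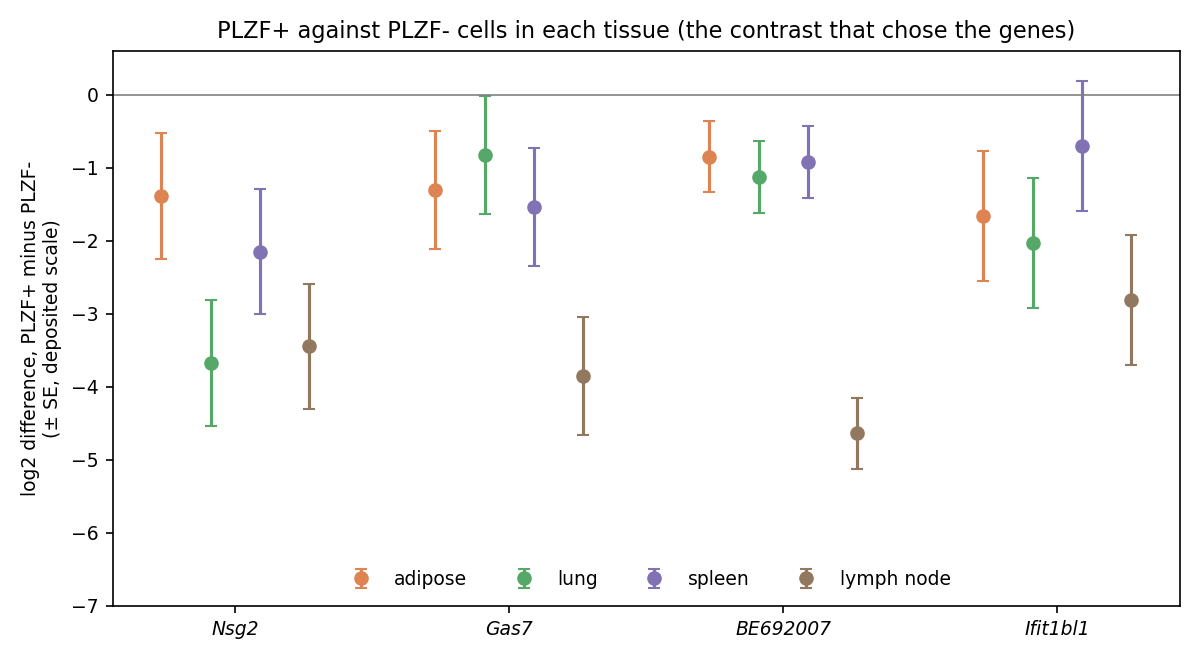
Log2 difference on the deposited scale, PLZF+ minus PLZF-, with SE bars, for each gene and tissue. All 16 differences lie below 0, and the lymph node value of BE692007 (-4.64) is the farthest from 0.

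Whether the PLZF difference itself varied by tissue was tested with an interaction term in limma, which the choice of members does not fix. BE692007 passed (adjusted p = 0.0419 by limma), and 4 of 5007 genes did so, 0.0799%. That call was lost without any one of 17 of the 24 libraries (adjusted p = 0.0511 to 0.252 by limma), after quantile scaling (adjusted p = 0.220) and in limma voom on recovered reads (adjusted p = 0.25). For Nsg2, Gas7 and Ifit1bl1 the interaction did not pass, with adjusted p = 0.728 to 0.910. Set as adipose tissue and lung against the 2 lymphoid organs, the PLZF difference of BE692007 was nearer to 0 in adipose tissue and lung by 1.79 ± 0.49 on the log2 scale, which did not pass (adjusted p = 0.623 by limma). No gene passed this second test in limma (0%), while 249 had an unadjusted p under 0.05 and 1 passed in limma voom.

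Differences between tissues within a subset were tested next, with lymphoid meaning the mean of spleen and lymph node. The authors had kept genes that passed their own test over the 4 tissues, with PLZF ignored. In the authors' deposited table the q-values of that test were 0.0440 for Nsg2, 0.0466 for Gas7, 0.0428 for BE692007 and 0.0247 for Ifit1bl1. A tissue difference in these genes was thus a condition of entry. All 4 genes passed the filter on low values (3 or more libraries with a log2 value of 1 or higher). Between adipose tissue and lymphoid organs 37.8% of the 5007 genes tested passed in PLZF+ cells (27.2% higher and 10.5% lower in adipose tissue) and 45.1% in PLZF- cells (29.7% higher and 15.4% lower).

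In adipose tissue Nsg2, BE692007 and Ifit1bl1 fell and Gas7 rose relative to lymphoid organs, in both subsets. Nsg2 fell by 2.63 ± 0.75 in PLZF+ cells (adjusted p = 0.0132 by limma) and fell by 4.04 ± 0.75 in PLZF- cells (adjusted p = 0.000534). In adipose tissue BE692007 fell by 1.80 ± 0.42 in PLZF+ cells (adjusted p = 0.00474 by limma) and fell by 3.74 ± 0.42 in PLZF- cells (adjusted p = 7.15e-06). Ifit1bl1 fell by 3.08 ± 0.77 in PLZF+ cells (adjusted p = 0.00678 by limma) and fell by 3.19 ± 0.77 in PLZF- cells (adjusted p = 0.00320). In PLZF+ cells the adipose libraries overlapped those of lymph node for these 3 genes, and in PLZF- cells they lay below both lymphoid organs. The share of all genes with such an order was not counted, so it is not read as particular to these genes. Gas7 rose by 3.52 ± 0.70 in PLZF+ cells (adjusted p = 0.00142 by limma) and by 2.14 ± 0.70 in PLZF- cells (adjusted p = 0.0192).

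On this scale the median of all genes tested was itself higher in adipose tissue, by 1.15 in PLZF+ and 0.58 in PLZF- cells, and after quantile scaling it was 0.06 and -0.34. Relative to the median gene, Gas7 was higher by 2.37 in PLZF+ and 1.56 in PLZF- cells, and the other 3 genes kept their direction. Of the genes called, 72.1% in PLZF+ and 65.8% in PLZF- cells were higher in adipose tissue, and after quantile scaling 36.3% and 41.4%. In PLZF- cells Gas7 did not pass after quantile scaling (adjusted p = 0.0886) or without PLZF- adipose library 3 (adjusted p = 0.0953). In PLZF+ cells limma voom on recovered reads gave adjusted p = 0.0736 for Nsg2, 0.171 for BE692007 and 0.0640 for Ifit1bl1. Without PLZF+ adipose library 2 or 3, Nsg2 and Ifit1bl1 no longer passed in PLZF+ cells, with adjusted p of at most 0.109 and 0.0591 by limma. Beside these differences, stromal and adipocyte markers were higher in adipose tissue for 8 of 9 genes in PLZF+ and 9 of 9 in PLZF- cells, and T cell receptor complex genes were lower for 3 of 6 and 6 of 6. Myeloid markers were higher for 4 of 11 in PLZF+ and 7 of 11 in PLZF- cells. Over all genes tested 27.2% were higher and 10.5% lower in PLZF+ cells, and 29.7% higher and 15.4% lower in PLZF- cells. The PLZF+ myeloid count is thus near the share over all genes. What share of the differences goes with cell composition was not tested.

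In lung the differences from lymphoid organs rested on deep and shallow libraries together. Beside them, myeloid markers were higher in lung for 11 of 11 genes in PLZF+ cells (median 4.23) and 9 of 11 in PLZF- cells (median 3.52), and T cell receptor complex genes were lower for 3 of 6 and 6 of 6. Their part in the values of Gas7 and the other genes was not tested. Gas7 rose in PLZF+ lung (2.75 ± 0.70, adjusted p = 0.00964 by limma) and gave 0.88 ± 0.70 in PLZF- lung (adjusted p = 0.251). Nsg2 fell by 2.32 ± 0.75 in PLZF+ lung (adjusted p = 0.0255 by limma), and gave -1.44 ± 0.75 in PLZF- lung (adjusted p = 0.0851). The PLZF+ call was lost without PLZF+ lung library 2 or 3 (adjusted p = 0.139 to 0.154) and in limma voom (adjusted p = 0.260), and the PLZF- value passed after quantile scaling (adjusted p = 0.0194) and in limma voom (adjusted p = 0.0293). Without lung libraries 2 and 3 of both subsets, the Nsg2 difference in PLZF+ cells was 0.07 and that of Gas7 2.59, and neither passed (adjusted p = 0.968 and 0.246). That fit has 1 lung library per subset, which is assumed to vary like the other groups, so a call lost in it, here and below, may reflect the smaller number of libraries. BE692007 fell by 1.06 ± 0.42 in PLZF- lung (adjusted p = 0.0308 by limma), a call lost without those libraries (adjusted p = 0.656), in limma voom (adjusted p = 0.218) and without any of 5 single libraries (adjusted p = 0.0509 to 0.218), and gave 0.59 ± 0.42 in PLZF+ lung (adjusted p = 0.223). Ifit1bl1 gave -1.75 ± 0.77 in PLZF+ lung (adjusted p = 0.0698) and -1.48 ± 0.77 in PLZF- lung (adjusted p = 0.0840 by limma), and passed after quantile scaling in both (adjusted p = 0.0221 and 0.0325). In this comparison 36.3% of genes passed in PLZF+ cells (29.3% higher and 7.03% lower in lung) and 74.2% in PLZF- cells (55.8% higher and 18.4% lower), with medians of 1.39 and 2.06 that quantile scaling took to 0.04 and 0.19. Relative to the median gene Gas7 was higher by 1.36 in PLZF+ lung and lower by 1.18 in PLZF- lung, while its quantile-scaled difference there was 0.61, so no direction is given for Gas7 in PLZF- lung. Of the genes called, 80.6% in PLZF+ and 75.2% in PLZF- cells were higher in lung, and after quantile scaling 32.9% and 35.7%.

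Between adipose tissue and lung, BE692007 fell in adipose tissue in both subsets, by 2.39 ± 0.49 in PLZF+ cells (adjusted p = 0.0110 by limma) and fell by 2.67 ± 0.49 in PLZF- cells (adjusted p = 0.00764). Among all genes 2.54% passed in PLZF+ cells (0.459% higher and 2.08% lower in adipose tissue) and 16.9% in PLZF- cells (4.29% higher and 12.6% lower). The BE692007 calls were lost in limma voom (adjusted p = 0.305 and 0.0670) and without lung libraries 2 and 3 (adjusted p = 0.102 and 0.0977), at differences of -2.36 and -3.20, and the PLZF+ call also without PLZF+ adipose library 2 (adjusted p = 0.0769). Nsg2 fell by 2.60 ± 0.86 in PLZF- adipose tissue (adjusted p = 0.0446 by limma), a call lost without any one of 14 single libraries (adjusted p = 0.0501 to 0.147), in limma voom (adjusted p = 0.103), after quantile scaling (adjusted p = 0.359) and without lung libraries 2 and 3 (adjusted p = 0.225). In PLZF+ cells Nsg2 gave -0.31 ± 0.86 (adjusted p = 0.903). Gas7 gave 0.77 ± 0.81 in PLZF+ and 1.26 ± 0.81 in PLZF- cells, and Ifit1bl1 -1.33 ± 0.89 and -1.71 ± 0.89, none of which passed in limma. Of the genes called, 18.1% in PLZF+ and 25.5% in PLZF- cells were higher in adipose tissue, and after quantile scaling 39.2% and 50.4%.

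Spleen and lymph node differed for BE692007 in PLZF+ cells. It was higher in spleen by 2.65 ± 0.49 (adjusted p = 0.00650 by limma), where 1.44% of genes passed (1.34% higher and 0.0999% lower in spleen). The 3 PLZF+ spleen libraries lay above the 3 PLZF+ lymph node libraries for BE692007, Nsg2 and Ifit1bl1, an order found in 13.2% of genes, but Nsg2 (2.11 ± 0.86, adjusted p = 0.282), Gas7 (1.95 ± 0.81, adjusted p = 0.292) and Ifit1bl1 (2.28 ± 0.89, adjusted p = 0.249 by limma) did not pass. The BE692007 call was lost in limma voom (adjusted p = 0.0907) and without PLZF+ spleen library 3 or PLZF+ lymph node library 3 (adjusted p = 0.0517 to 0.0543 by limma). Gas7 passed without PLZF+ lymph node library 1 (adjusted p = 0.0388 by limma). That library was the deepest of its group and had the most myeloid and B cell reads, and the part of each was not tested. In PLZF- cells 0.399% of genes passed (0.120% higher and 0.280% lower in spleen), and none of the 4 did. There BE692007 gave -1.07 ± 0.49 (adjusted p = 0.509 by limma), the opposite sign to PLZF+ cells, which is the contrast that the interaction test covers.

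**Figure D3:**
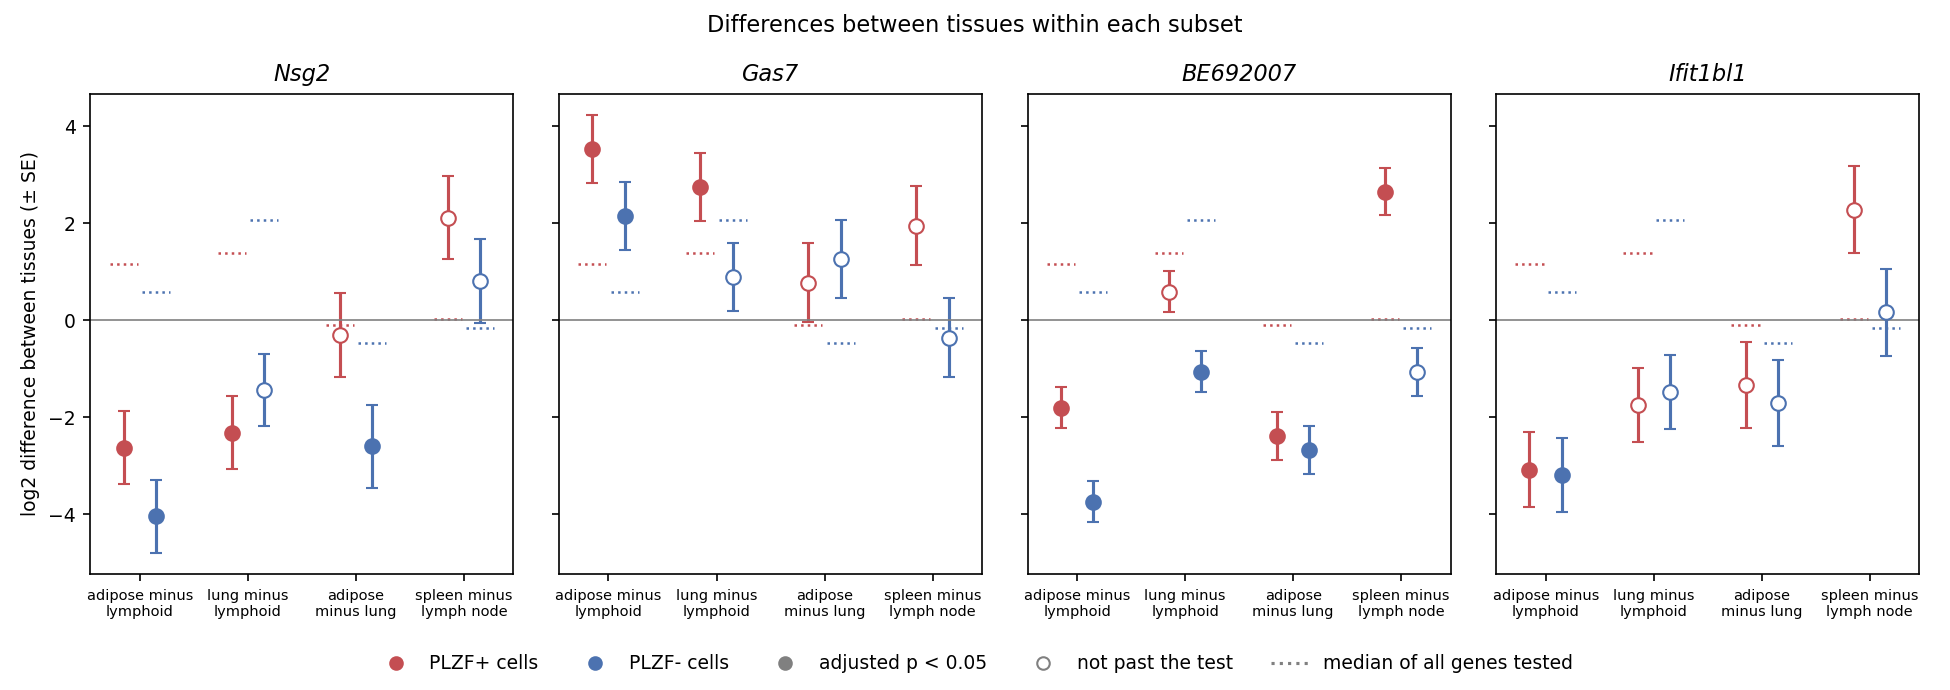
Log2 difference between tissues with SE bars for each gene, PLZF+ (red) left of PLZF- (blue), filled where adjusted p was under 0.05, with the median of all genes tested as a dotted line. Gas7 is above 0 and Nsg2, BE692007 and Ifit1bl1 are below 0 in adipose tissue against lymphoid organs in both subsets, and for BE692007 spleen minus lymph node is 2.65 in PLZF+ and -1.07 in PLZF- cells.

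The genes most alike were sought by Pearson correlation of log2(normalized reads + 1) over the 24 libraries, among 2846 genes with a mean of at least 10 normalized reads. For Nsg2 they were Arl4c (0.905), a small GTPase, Smc4 (0.893), a condensin subunit, and Limk1 (0.876), a kinase that acts on cofilin. For Ifit1bl1 Arl4c again came first (0.887), before Cd6 (0.861), a T cell surface receptor, and Ccr9 (0.860), the receptor of the chemokine CCL25. For BE692007 they were Themis (0.943), a protein of T cell receptor signalling in thymocytes, Slamf6 (0.869), a lymphocyte surface receptor, and Cd8b1 (0.863), the β chain of CD8. For Gas7 they were Spry2 (0.859), an inhibitor of growth factor signalling, Bcl2l11 (0.825), which encodes the death protein Bim, and Lilr4b (0.822), an immunoglobulin-like receptor.

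Themis averaged 122 normalized reads in PLZF+ spleen and 127 in PLZF- spleen, against 26.3 in PLZF+ lymph node and 326 in PLZF- lymph node. Its subsets were thus far apart in lymph node, as those of BE692007 were. Arl4c averaged 23.4 in PLZF+ and 65.3 in PLZF- adipose tissue, and 129 in PLZF+ and 309 in PLZF- spleen. Spry2 averaged 28.7 in PLZF+ and 128 in PLZF- adipose tissue, and 4.50 in PLZF+ and 28.6 in PLZF- lymph node. Among the 4 genes themselves, Nsg2 correlated at 0.84 with Ifit1bl1 and 0.76 with BE692007, and BE692007 at 0.80 with Ifit1bl1. Gas7 correlated at -0.16 to 0.07 with the other 3 over 24 libraries at -0.44 to 0.00 within the 12 PLZF+ libraries and at -0.69 to -0.65 within the 12 PLZF- libraries. These correlations hold group differences as well as shared depth, and after each library was set against its group mean they were 0.26 to 0.56 among Nsg2, BE692007 and Ifit1bl1 and -0.04 to 0.25 between Gas7 and those 3. Cd8b1 and Ccr9 also stand in the lists of αβ T cell and naive cell genes used below.

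**Figure D4:**
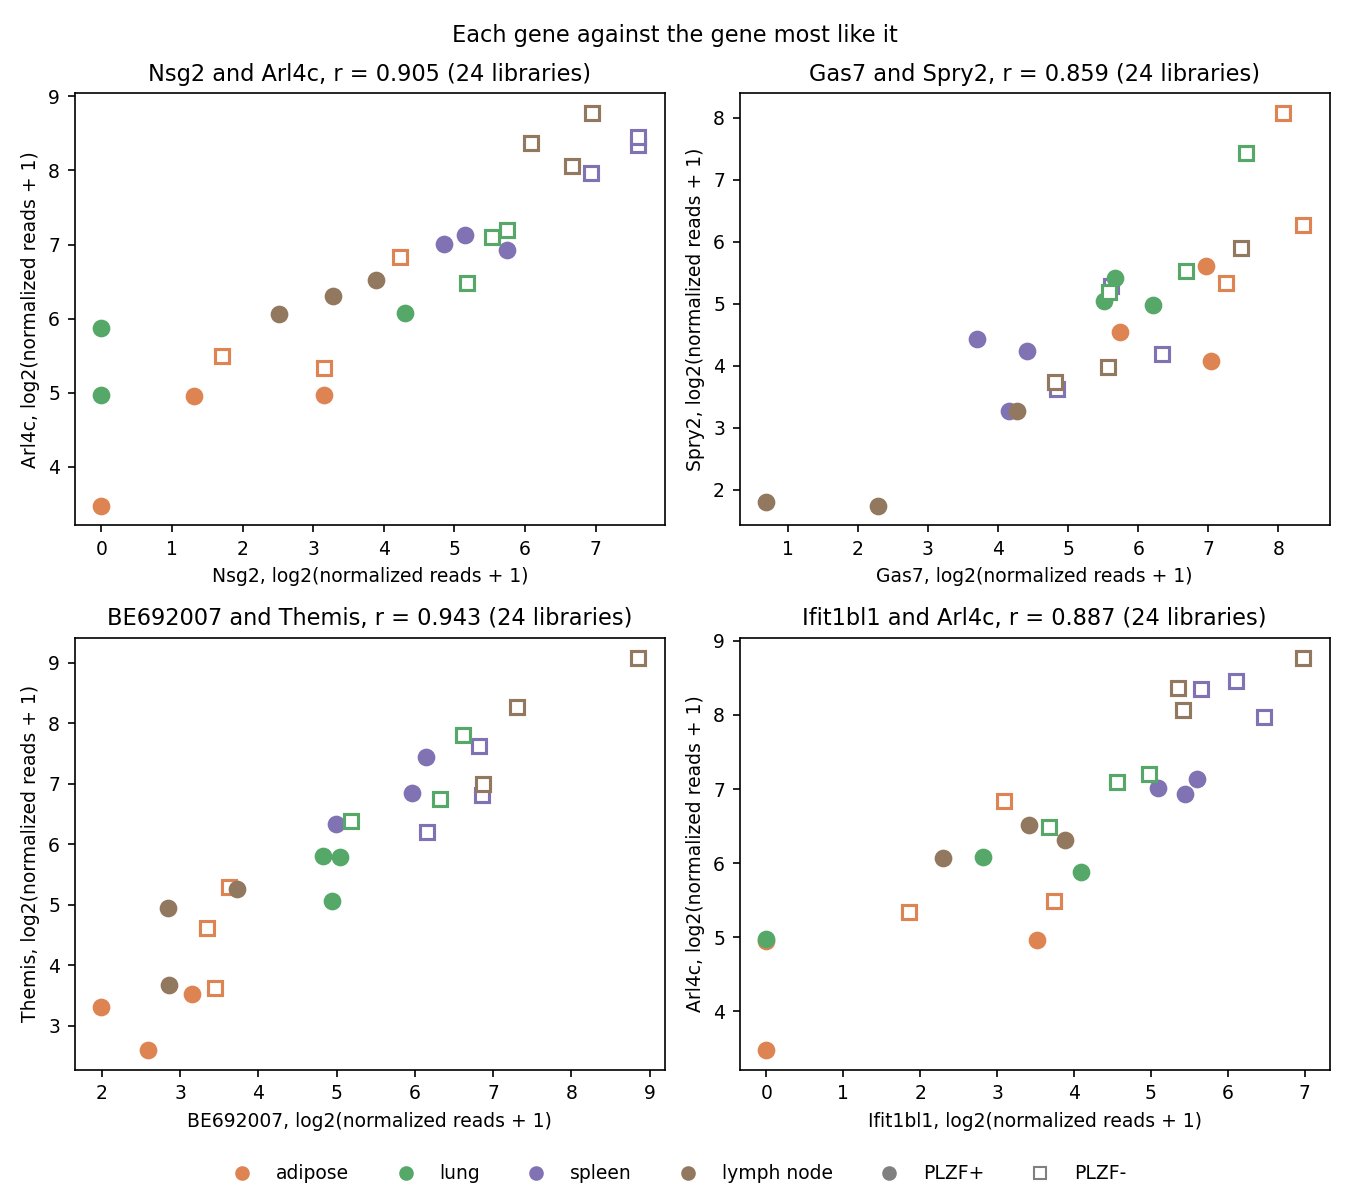
Each gene (horizontal) against the gene most like it (vertical) in the 24 libraries, both as log2(normalized reads + 1), coloured by tissue with PLZF+ filled and PLZF- open. The pairs rise together over the 24 libraries, with r from 0.859 for Gas7 and Spry2 to 0.943 for BE692007 and Themis.

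Neighbours of the genes on chromosome 19 were read as well, Ms4a6b being singled out after its values were seen. Ms4a6b, a membrane protein gene 31933 bases from BE692007, was lower in PLZF+ cells by 1.11 ± 0.22 over the tissues (adjusted p = 0.0120 by limma). It averaged 512 normalized reads in PLZF+ and 1088 in PLZF- spleen, against 255 in PLZF+ and 1019 in PLZF- lymph node. It correlated at 0.82 with BE692007, at 0.87 with Nsg2 and at 0.82 with Ifit1bl1 over the 24 libraries. Of the 50-base windows of BE692007 transcripts 1.58% also occur in Ms4a6b, and of those of Ifit1bl1 0.727% in Ifit1. The part of shared reads in the values and correlations of these neighbours was not tested. Ifit1, 38914 bases from Ifit1bl1, gave -0.82 ± 0.35 over the tissues (adjusted p = 0.411 by limma). Ifit1 averaged 9.16 normalized reads in PLZF+ and 31.8 in PLZF- adipose tissue, 44.8 in PLZF+ and 63.5 in PLZF- spleen, and 42.5 in PLZF+ and 81.2 in PLZF- lymph node. In lung it averaged 16.6 in PLZF+ and 12 in PLZF- cells, a log2 difference of 0.06. Between adipose tissue and lymphoid organs it fell in PLZF+ cells (adjusted p = 0.0178 by limma; 0.109 without PLZF+ adipose library 3), with a log2 difference of -2.0 ± 0.60, and gave -1.15 ± 0.60 in PLZF- cells (adjusted p = 0.123).

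Other interferon-stimulated genes in the table were mostly lower in adipose tissue than in lymphoid organs. Of 50 listed genes 15 were in the table, Ifit1bl1 not counted. Between PLZF+ and PLZF- cells 0 of the 15 rose, 0 fell and 15 did not pass, with a median of -0.47 against 0.08 over all genes, where 1.46% passed. At that share a count of 0 in a list this short says little, and it does not set these genes apart from Ifit1bl1. Ifi47, an immunity-related GTPase, gave -0.76 ± 0.22 (adjusted p = 0.113 by limma), and passed in limma voom (adjusted p = 0.0180) and without lung libraries 2 and 3. Ddx58, which encodes the RNA sensor RIG-I, gave -0.45 ± 0.17 (adjusted p = 0.327 by limma).

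In adipose tissue 12 of the 15 fell in PLZF+ cells and 9 in PLZF- cells relative to lymphoid organs, and 0 rose in either. Over all genes tested 10.5% fell in PLZF+ and 15.4% in PLZF- cells. The table holds only genes past the authors' test over the tissues, so a tissue difference in these 15 was a condition of entry. Listed genes outside the table could not be counted. The list's medians were -1.33 in PLZF+ and -1.35 in PLZF- cells. In lung, with the shallow libraries 2 and 3 included, 10 of the 15 fell in PLZF+ and 12 in PLZF- cells. Ifit1bl1 was below 0 there too (-1.75 in PLZF+ and -1.48 in PLZF- cells). It passed in neither subset in the main fit, but in both after quantile scaling (adjusted p = 0.0221 and 0.0325 by limma). Over all genes tested 7.03% fell in PLZF+ and 18.4% in PLZF- lung. Between spleen and lymph node in PLZF+ cells the list's median was -0.38, with 10 of 15 below 0, while Ifit1bl1 gave 2.28 and did not pass. Among those that fell in PLZF+ cells were Ifi47 (-2.16 ± 0.38, adjusted p = 0.000676), Mx1, an antiviral GTPase (-3.77 ± 0.77, adjusted p = 0.00178) and Slfn8 (-1.73 ± 0.37, adjusted p = 0.00255 by limma). Among those that fell in PLZF- cells were Slfn8 (-1.72 ± 0.37, adjusted p = 0.00167), Zbp1, a nucleic acid sensor (-2.25 ± 0.50, adjusted p = 0.00189), and Dhx58, a regulator of RNA sensing (-1.98 ± 0.45, adjusted p = 0.00222 by limma).

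Genes of interferon receptors and signalling made up another list. Of 12 listed, 5 were in the table, and Ifngr2, a chain of the interferon-γ receptor, rose in PLZF+ cells (0.84 ± 0.21, adjusted p = 0.0479 by limma). That call was lost without any one of 19 single libraries, with adjusted p of up to 0.112, after quantile scaling, and without lung libraries 2 and 3 (adjusted p = 0.155). In adipose tissue 3 rose and 1 fell in PLZF+ cells, and 4 rose in PLZF- cells, among them Socs3, an inhibitor of cytokine signalling (3.35 ± 0.50, adjusted p = 0.000108 in PLZF+ and 2.22 ± 0.50, adjusted p = 0.00217 in PLZF- cells by limma). Over all genes 27.2% rose in PLZF+ and 29.7% in PLZF- cells. After quantile scaling 1 rose and 1 fell in PLZF- cells, and Jak2 (adjusted p = 0.456), Ifngr2 (0.301) and Ifngr1 (0.310) no longer passed. Ifngr2 and Ifngr1 also did not pass in PLZF- cells without PLZF- adipose library 1 (adjusted p = 0.114 and 0.199), nor Irf2, the gene that fell in PLZF+ cells, without any one of 7 libraries.

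Genes of naive and recently emigrated T cells in the table were in part lower in PLZF+ cells and mostly lower in adipose tissue. Of 22 listed, 7 were in the table, and 3 fell in PLZF+ cells, 0 rose and 4 did not pass, with a median of -0.95. Over all genes tested 0.659% fell and 0.799% rose in PLZF+ cells. Dapl1, a marker of naive T cells, had 0 reads in all PLZF+ adipose and lung libraries, and averaged 6.84 ± 1.99 normalized reads in PLZF+ spleen, against 69.7 ± 13.1 in PLZF- spleen (SD, n = 3 each). Over the tissues it fell by 3.06 ± 0.39 (adjusted p = 0.000240 by limma), a value that depends on how 0 reads are scaled. Ccr9 fell by 2.13 ± 0.39 (adjusted p = 0.00729) and Foxp1, a transcription factor of T cell quiescence, by 0.90 ± 0.19 (adjusted p = 0.0171 by limma). Ccr9 did not pass without lung libraries 2 and 3 (adjusted p = 0.0605), nor Foxp1 after quantile scaling (adjusted p = 0.0990). In adipose tissue 6 of the 7 fell in each subset. Over all genes tested 10.5% fell in PLZF+ and 15.4% in PLZF- cells, and here too a tissue difference was a condition of entry. Cd7, a T cell surface receptor, gave -5.81 ± 0.57 in PLZF+ cells (adjusted p = 1.28e-06), and in PLZF- cells Tcf7, the transcription factor TCF-1, gave -3.98 ± 0.55 (adjusted p = 3.67e-05 by limma).

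Genes with a role like that of Gas7 or Nsg2 were read too, but with 1.46% of all genes passing by PLZF, a count of 0 in lists this short says little. Of 21 genes of F-BAR and actin-linked membrane proteins 8 were in the table, and 0 passed between PLZF+ and PLZF- cells (median 0.20). Fchsd2 gave 0.65 ± 0.18 (adjusted p = 0.0954) and Pacsin1 -1.18 ± 0.40 (adjusted p = 0.221 by limma). Each passed under some alternatives, Fchsd2 on recovered reads (lowest adjusted p = 0.0339) and Pacsin1 with a replicate block within tissue (adjusted p = 0.00812). In adipose tissue 2 rose and 0 fell in PLZF+ cells, and 3 rose and 4 fell in PLZF- cells, where Pacsin2 gave 1.86 ± 0.42 (adjusted p = 0.00229) and Pacsin1 -2.84 ± 0.69 (adjusted p = 0.00347 by limma). Over all genes tested 27.2% rose and 10.5% fell in PLZF+ cells, and 29.7% rose and 15.4% fell in PLZF- cells. After quantile scaling 0 of the F-BAR and actin-linked genes rose in either subset, and Pacsin2 had adjusted p = 0.313 by limma. Of 20 endosomal and vesicle trafficking genes 5 were in the table, and 0 passed by PLZF (median 0.03). In adipose tissue 2 of them rose in PLZF+ cells (median 0.93, against 1.15 over all genes) and 4 in PLZF- cells (median 1.71, against 0.58), with Cltb, a clathrin light chain, at 2.02 ± 0.36 in PLZF+ cells (adjusted p = 0.000762) and 2.06 ± 0.36 in PLZF- cells (adjusted p = 0.000382 by limma). After quantile scaling 1 rose in PLZF+ and 2 in PLZF- cells, and Rab11a (adjusted p = 0.579 in PLZF+ and 0.162 in PLZF- cells) and Stx12 (0.202 in PLZF- cells) no longer passed.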

How the data were processed

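Log2 values of 7926 genes and 24 libraries were deposited. The header names TMM factors and the program Qlucore, per the file headers. The submitters' processing notes name HISAT 0.1.6, SAMtools 1.2 and Cufflinks 1.2 with the mm10 genome. The authors' p-values were repeated for 7915 genes (within 0.001 on the log10 scale) by a one-way test over the 4 tissues. The largest of the authors' q-values was 0.0500, so the table is limited to genes past that test. The deposited log2 values equal log2 of reads plus 0.5, plus a term per library and a term per gene. A second deposited file repeats part of these values and was not used. Whole reads were recovered for 7925 genes (99.99%, tolerance 0.05 reads) and divided by relative depth to give normalized reads. Levels are not per length and are not compared between genes. Values of 0 reads sit at a floor that depends on depth.

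A mean per group (8 groups) was estimated in R 4.3.3 by limma 3.58.1, for 5007 genes with 3 or more libraries at a log2 value of 1 or higher. The test was moderated with a trend, p-values were adjusted by Benjamini-Hochberg over those genes, and 11 merged entries were left out. The procedure was tested on simulated data. Alternatives were no filter, a stricter filter (log2 value of 3 in 6 libraries), quantile scaling, recovered reads with 1 or 4 added, limma voom, a replicate block and leaving out each library. Fits on recovered reads covered 2847 genes with a mean of at least 10 normalized reads. Leaving out lung libraries 2 and 3 was chosen after seeing the data.

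The members and gene lists were chosen with earlier results of these data known. The rule for named genes took the 4 members, the 3 genes most like each, the Ifit family in the table (Ifit1), and from every list up to 4 genes past the test by adjusted p, or the lowest 2 where none passed, of which part is printed. Ms4a6b was added outside that rule. One gene that the rule names is not reported here. Gene coordinates are from GENCODE M21 on GRCm38, and promoters from RefSeq GRCm38.p6. Sequence work used Python 3.11.15.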

Additional observations from a re-analysis of the deposited data

Results flagged for a closer look

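The difference between PLZF+ and PLZF- cells in BE692007 varied with tissue (adjusted p = 0.0419 by limma, PLZF by tissue interaction). The log2 difference was -4.64 in lymph node and -1.13 to -0.85 in adipose tissue, lung and spleen. A limma fit with the replicate number as a block within tissue gave adjusted p = 0.163. The gene shares 20.8% of its exon bases with Ms4a6c on the opposite strand, and its 3 PLZF- lymph node libraries ranged from 116 to 461 normalized reads.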

How the results depend on the processing

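Counts are genes at adjusted p under 0.05 in limma; settings are in the order no filter, stricter filter, quantile scaling, reads plus 1, reads plus 4, limma voom, replicate block, and no lung libraries 2 and 3. Settings within 1.5 times the count are left out. For lung against lymphoid organs in PLZF- cells 3713 became 6580 with no filter, 2016 with the stricter one, 1882 with quantile scaling, 1749 and 1735 on reads plus 1 and 4, 784 in voom and 147 without lung libraries 2 and 3; in PLZF+ cells 1819 became 3361, 1116 (filters), 987, 1048 (reads plus 1 and 4), 773 (voom) and 151 (lung libraries). For adipose tissue against lung in PLZF- cells 844 became 2015, 324 (filters), 375, 418 (reads), 7 (voom) and 1 (lung libraries); in PLZF+ cells 127 became 199 (quantile), 209, 259 (reads), 45 (voom), 191 (replicate block) and 7 (lung libraries). For spleen against lymph node in PLZF+ cells 72 became 46 with the stricter filter and with quantile scaling, 43 (reads plus 4), 34 (voom) and 112 (replicate block); in PLZF- cells 20 became 13 (stricter filter), 8 (quantile), 7 and 6 (reads). For adipose tissue against lymphoid organs in PLZF+ cells 1891 became 1070 in voom. The interaction count of 4 became 0 with quantile scaling, 2 on reads plus 1 and plus 4, 1 in voom, 0 with the block within tissue and 0 without the lung libraries. The second interaction test, adipose tissue and lung against lymphoid organs, gave 1 on reads and in voom. The PLZF count of 73 became 39 (quantile), 122 (voom) and 40 (lung libraries). Without lung libraries 2 and 3, lung has 1 library per subset. The cause of these changes was not tested beyond the fewer genes or libraries that a setting leaves.

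Leaving out 1 library gave, for adipose tissue against lymphoid organs, 607 to 2404 (PLZF+) and 1077 to 2633 (PLZF-). It gave 564 to 2592 and 2115 to 3868 for lung against lymphoid organs, 42 to 211 and 74 to 1823 for adipose tissue against lung, and 21 to 135 and 2 to 83 for spleen against lymph node, in PLZF+ and PLZF- cells. It gave 0 to 19 for the interaction, 0 to 4 for its second test and 40 to 77 for PLZF. The lowest counts came without PLZF+ adipose library 3, PLZF- adipose library 3, PLZF+ lung library 2, PLZF- lung library 2, PLZF+ adipose library 2, PLZF- lung library 3, PLZF+ lymph node library 3 and PLZF- lymph node library 2, in that order. In the first 4 of these the matching library 2 or 3 also moved the count by over 1.5 times, to 875, 1419, 754 and 2273.

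Of the members' values in 40 comparisons, 890 of 960 without 1 library and 281 of 318 under other alternatives kept direction and call. Directions turned where no test passed, and for Nsg2 in PLZF+ lung against lymphoid organs (0.07 without lung libraries 2 and 3). Nsg2 in adipose tissue against lung (PLZF+) gave 0.10 (quantile), 0.06 (reads plus 1) and, -1.09 to 0.89 without 1 library. Its PLZF difference in adipose tissue and lung against lymphoid organs gave -0.14 (quantile), -0.06 (reads plus 1) and -0.34 to 0.57 without 1 library; that of Ifit1bl1 gave 0.41 (reads plus 4) and -0.67 to 0.39. Spleen against lymph node in PLZF- cells gave -0.93 to 0.40 for Gas7 and -0.13 to 0.69 for Ifit1bl1, without 1 library. The BE692007 interaction gave adjusted p = 0.0688 with no filter, 0.0263 with the stricter filter, 0.0861 and 0.0564 on reads, 0.135 without the lung libraries and 0.0289 with a replicate block. Nsg2 was not tested under the stricter filter.

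Replicate numbers are shared across groups. Deviations of same-numbered libraries from their group means correlated at 0.179 to 0.662 in adipose tissue, lung and lymph node but at -0.057 to -0.014 in spleen, and PLZF+ adipose library 2 correlated best with PLZF- adipose library 3 (0.299). As not every pair was above 0.1, the numbers were not taken to pair the libraries, although the 9 pairs outside spleen were above it. A replicate block made Nsg2 in PLZF- lung pass (adjusted p = 0.0488), and a replicate block within tissue gave adjusted p = 0.163 for the BE692007 interaction. On the deposited log2 values 10 of the 12 most alike genes stayed among the closest. Depth limits the values: in the shallowest libraries 3 reads equal 17.7 normalized reads.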
